A study of Mus musculus with 20 samples.

Results

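H3K27ac in fasted liver was compared between Cpt2 KO and WT mice, with 2 libraries a genotype, 4 of the 20 samples of the series. Both groups were 9-week-old C57BL/6 males on chow that had been fasted for 24 hours. The Cpt2 KO (Cpt2 L-/-) lacks Cpt2 in the liver, and the WT group carries no deletion. The labels name neither the Cre driver nor the deleted exons, and they number the libraries of a group without saying that they came from separate animals, so p-values measure the spread between libraries, which may be technical. H3K27ac of Ppara KO (Ppara -/-) and of the double knockout (DKO, Cpt2 L-/- and Ppara -/- together, with Ppara absent from the whole body), 2 libraries each and fasted alike, served for the spread and as a separate pair that differs in Cpt2.

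The regions described are intervals of the authors' H3K27ac consensus set, 65776 in all, of which 54057 overlapped a peak of at least 1 of the 4 libraries. An interval called in both Cpt2 KO libraries and neither WT library is termed gained, and the reverse is termed lost. Intervals called in all 4 libraries, 20947, are termed shared. Each carries the fold over input of the highest overlapping peak, as the authors' caller gave it, and was tested on the log2 scale after each library was centred on its median. A missing call means that no peak reached the caller's threshold, not that the mark was absent. In bulk liver, fewer cells of a type and less of the mark per cell cannot be told apart.

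Acetylation of histone H3 at lysine 27 marks active promoters and enhancers. CPT2 sits in the inner mitochondrial membrane and releases fatty acyl groups from carnitine so that they can enter beta-oxidation, the main fuel route of a fasted liver. PPARA is the nuclear receptor that fatty acids activate in fasting, and it switches on genes of fatty acid oxidation and ketogenesis. SREBP factors, encoded by Srebf1 and Srebf2, run the opposite program of fatty acid and cholesterol synthesis.

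Promoter sequences of 5 genes show the letters beneath the results that follow. They come from RefSeq on build GRCm38.p6, run 5′ to 3′ on the gene's strand and cover 250 bases before to 50 after a start. Capitals mark a match, on either strand, to any of 12 motifs searched. The Cpt2 promoter (chr4:107923540-107923839, minus strand) is shown as the targeted gene's start. The Cyp2c39 promoter (chr19:39510572-39510871, plus strand) lies under an interval that was higher in Cpt2 KO. The promoters of Saa4 (chr7:46732554-46732853, minus strand), Srebf1 (chr11:60210422-60210721, minus strand) and Fasn (chr11:120824498-120824797, minus strand) lie under intervals that were lower.
Cpt2: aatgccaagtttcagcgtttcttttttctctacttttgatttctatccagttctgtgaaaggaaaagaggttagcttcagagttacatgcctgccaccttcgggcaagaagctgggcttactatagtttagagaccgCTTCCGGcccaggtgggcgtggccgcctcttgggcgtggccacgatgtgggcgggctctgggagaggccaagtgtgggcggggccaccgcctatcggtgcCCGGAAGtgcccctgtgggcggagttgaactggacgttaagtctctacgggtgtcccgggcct
Cyp2c39: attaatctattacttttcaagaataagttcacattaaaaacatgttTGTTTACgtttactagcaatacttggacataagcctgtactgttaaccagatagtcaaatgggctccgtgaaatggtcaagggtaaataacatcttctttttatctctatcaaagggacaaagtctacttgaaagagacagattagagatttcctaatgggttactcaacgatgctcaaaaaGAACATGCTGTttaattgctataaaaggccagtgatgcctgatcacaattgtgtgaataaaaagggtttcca
Saa4: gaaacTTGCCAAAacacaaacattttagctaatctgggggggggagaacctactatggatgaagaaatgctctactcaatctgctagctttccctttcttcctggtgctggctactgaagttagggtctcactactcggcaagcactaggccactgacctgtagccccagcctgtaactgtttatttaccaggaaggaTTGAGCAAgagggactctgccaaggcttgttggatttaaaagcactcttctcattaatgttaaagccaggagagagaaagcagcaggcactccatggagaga
Srebf1: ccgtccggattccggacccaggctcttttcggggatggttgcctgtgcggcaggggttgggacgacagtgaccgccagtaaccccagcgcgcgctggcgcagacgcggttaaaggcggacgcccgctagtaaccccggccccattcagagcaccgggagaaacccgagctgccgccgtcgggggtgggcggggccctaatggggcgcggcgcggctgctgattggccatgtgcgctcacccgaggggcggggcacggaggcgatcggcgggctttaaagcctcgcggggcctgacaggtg
Fasn: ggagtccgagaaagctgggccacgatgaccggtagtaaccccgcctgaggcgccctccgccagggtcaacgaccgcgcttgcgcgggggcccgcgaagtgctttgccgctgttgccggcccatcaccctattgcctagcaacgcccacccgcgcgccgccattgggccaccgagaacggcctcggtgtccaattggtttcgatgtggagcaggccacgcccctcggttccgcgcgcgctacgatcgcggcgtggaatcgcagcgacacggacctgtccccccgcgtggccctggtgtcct
In Cpt2 the capitals are the ETS motif CCGGAAG, once on each strand, which 8.86% of all 32851 RefSeq promoters in the table hold. In Cyp2c39 they are the FOXA motif TGTTTAC, held by 3.65% of promoters, and a glucocorticoid response element, held by 3.11%. In Saa4 they are the C/EBP motif TTGCNNAA, once on each strand, held by 10.8%. The Srebf1 and Fasn windows hold none of the 12, which says only that these letters are not there.

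The 4 H3K27ac libraries held 45151 to 47361 peaks over 42.1 to 47.8 Mb. Read depth is unknown from peak lists. The smallest peak in a list, which follows the fragment length the caller used, was 206 and 198 bases in WT and 221 and 220 bases in Cpt2 KO, so it moved with genotype. Between libraries, log2 fold correlated at r = 0.81 within WT and 0.87 within Cpt2 KO, and at 0.56 to 0.67 between genotypes, across the 20947 shared intervals. Markers of other cell types moved too and are given with the endothelial genes. Of the H3K4me1 libraries used for comparison, Cpt2 KO replicate 1 stood apart, and its values are given beside those of replicate 2.

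H3K27ac differed in both directions. Among shared intervals, 1195 were higher in Cpt2 KO (5.7% of those tested) and 1669 were lower (7.97%) at an adjusted p under 0.05 in limma. Their median log2 differences, Cpt2 KO minus WT, were 1.00 and -1.05, and 603 and 988 of them exceeded 1 in size. A further 6395 intervals were gained (11.8% of the 54057) and 4369 were lost (8.08%). Gained and lost calls rest on 2 libraries a group and have no test.

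The balance of higher and lower depended on the scaling. Without centring, 2172 intervals were higher and 678 lower, and after quantile normalization 1318 were higher and 1182 lower. With each library's smallest peak width as a covariate no interval passed in limma, and 705 higher and 949 lower ones had an unadjusted p under 0.05. Genotype and that width cannot be told apart in the 4 libraries. Each of the 2864 differences kept its direction when any 1 WT or Cpt2 KO library was left out. That was fixed beforehand, because the centred groups overlapped at none of these intervals. Calls in these fits did change, and fewest passed without Cpt2 KO replicate 1. In all 4 of these fits 49 higher and 86 lower intervals passed.

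**Figure D1:**
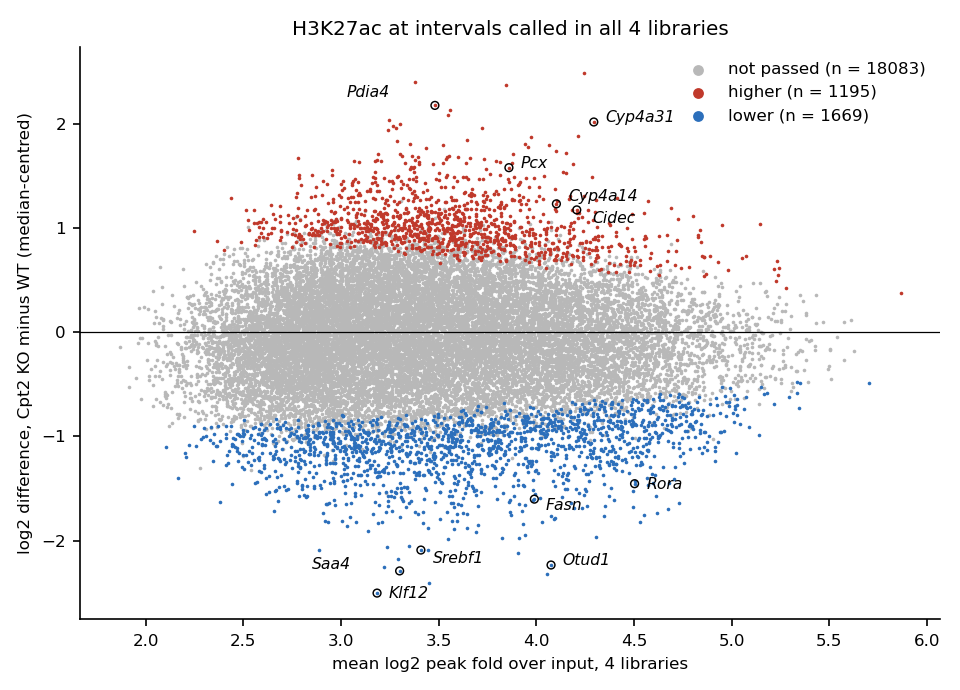
Each point is an H3K27ac interval called in all 4 libraries, by its mean log2 peak fold over input (x axis) and its median-centred log2 difference, Cpt2 KO minus WT (y axis). Red points (1195) were higher and blue points (1669) lower at a limma adjusted p under 0.05, and circled genes are named in the text.

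Higher and lower intervals differed in where they lay. Of the lower intervals, 38.8% covered an annotated start of the RefSeq promoter table and 80.0% had their middle inside a gene body. Of the higher intervals, 18.2% covered a start and 52.6% lay inside a gene body, against 34.7% and 71.1% of shared intervals that did not pass. The contrast was sharpest at the largest differences. The 13 intervals with a difference below -2 lay inside a gene body in 76.9% and over a start in 61.5%, whereas none of the 9 above 2 lay inside a gene body. Gained and lost intervals rarely covered a start, 3.92% and 2.88%, and had a median width of 636 bases each, against 1784 bases for shared intervals that did not pass. Gained intervals lay inside a gene body in 53.4% and lost ones in 73.8%.

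The interval over the start of the targeted gene did not differ beyond the threshold. Cpt2 starts under a shared interval, chr4:107920649-107924008, with a fold of 11.5 and 16.9 in WT and 18.7 and 23.2 in Cpt2 KO. Both knockout libraries lay above both WT libraries before centring, but after it WT replicate 2 lay above Cpt2 KO replicate 1. The centred log2 difference of 0.35 ± 0.25 (SE, n = 2 libraries a group) did not pass (limma adjusted p = 0.367). A lost interval, chr4:107901663-107903225, had its middle 1538 bases outside the Cpt2 gene body, on the far side from the start, with folds of 7.77 and 9.87 in WT. It was also called in both Ppara KO libraries, at 4.78 and 5.52, and in neither DKO library, so it was present in the 4 libraries with Cpt2 and uncalled in the 4 without it. Peak calls do not show which exons were removed, so they do not check the deletion.

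The largest higher intervals near a gene had WT folds of 3.38 to 10.3 and Cpt2 KO folds of 17.9 to 45.4. The largest of them, chr6:47788076-47789317, lay 7445 bases from Pdia4, which encodes a protein disulfide isomerase of the endoplasmic reticulum. Its fold was 6.00 and 3.91 in WT and 28.8 and 23.1 in Cpt2 KO, so both knockout libraries lay far above both WT libraries. The log2 difference was 2.18 ± 0.26 (SE, n = 2 a group; limma adjusted p = 0.00157). This interval was called in all 4 Ppara-null libraries as well, with Ppara KO folds of 16.9 and 19 and DKO folds of 25.9 and 27.8.

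Other intervals among the largest were weak or uncalled without Ppara. The interval chr4:115554710-115556453, 8046 bases from the fatty acid omega-hydroxylase gene Cyp4a31, had folds of 7.83 and 10.3 in WT and 45.4 and 40.4 in Cpt2 KO. It was called in 1 of the 4 Ppara-null libraries, DKO replicate 1, at a fold of 6.00. The difference between Cpt2 KO and WT was 2.02 ± 0.23 on the log2 scale (limma adjusted p = 0.00169, the 3 uncalled libraries left out of that fit). Oscar, which encodes an immune receptor of osteoclasts and myeloid cells, had an interval 755 bases away (chr7:3608338-3609778) with folds of 6.4 and 4.29 in WT and 28.8 and 23.6 in Cpt2 KO. The 4 Ppara-null libraries had no peak there and were left out of the fit, which gave 2.09 ± 0.29 (limma adjusted p = 0.00298). Sulf2, which encodes an extracellular heparan sulfatase, held a higher interval (chr2:166124390-166125309) at 5.01 and 4.14 in WT and 23.5 and 18.4 in Cpt2 KO, called in Ppara KO replicate 1 only, at 5.19. Its difference was 1.96 ± 0.28 (limma adjusted p = 0.0033, 3 libraries left out). Of all 1195 higher intervals, 82 (6.86%) had no call in any Ppara-null library, against 11 of the 1669 lower ones (0.66%) and 384 (2.12%) of the shared intervals that did not pass.

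The remaining largest higher intervals lay inside Sntb1, a syntrophin of the dystrophin complex (1.98), Nxph1, a neurexin ligand (1.96) and Usp48, a deubiquitinase (1.95), and 3656 bases from D630045J12Rik (2.04), all as log2 differences. Nxph1 and D630045J12Rik had no Ppara-null peak, and those 4 libraries were left out of their fits. With the smallest peak width as a covariate the D630045J12Rik difference turned to -0.064. The intervals near Pdia4, Oscar, Cyp4a31, Sntb1 and Sulf2 passed without any 1 WT or Cpt2 KO library, the largest adjusted p in limma being 0.0461. Those near Nxph1, Usp48 and D630045J12Rik passed in 3 of those 4 fits, with adjusted p of 0.058, 0.055 and 0.0552 in limma without Cpt2 KO replicate 1.

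**Figure D2:**
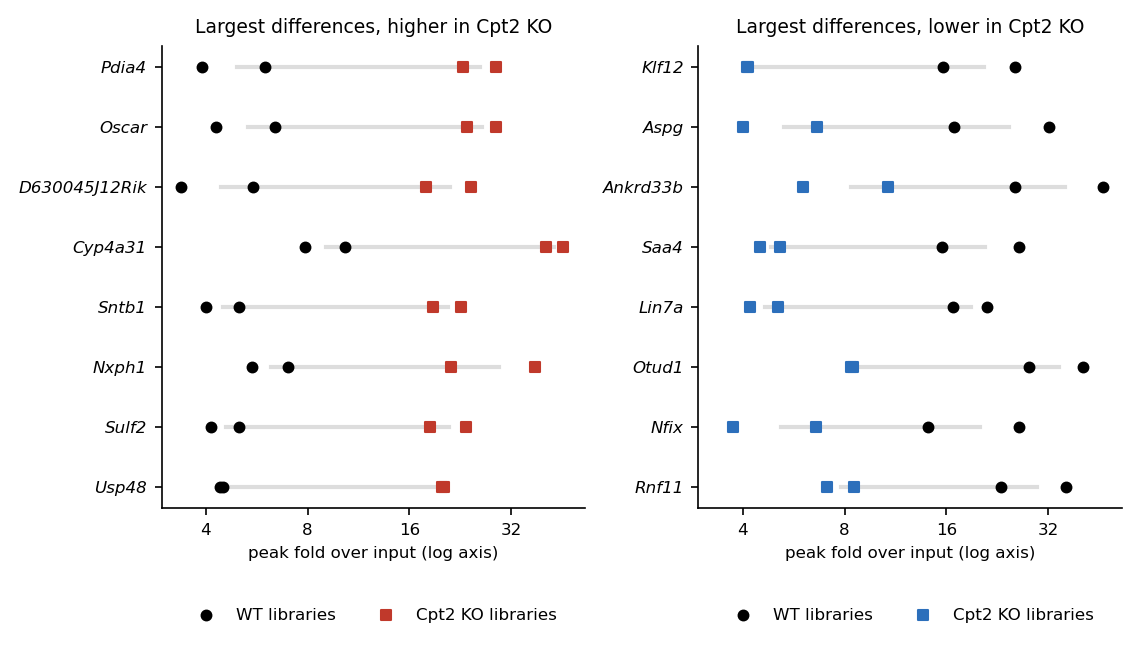
Peak fold over input (log axis) of the 8 intervals with the largest differences in each direction, 1 a gene, in the 2 WT libraries (black circles) and the 2 Cpt2 KO libraries (coloured squares), with a grey bar joining the group means. The intervals were chosen for this difference, and the WT symbols lie left of the Cpt2 KO symbols in the first panel and right of them in the second.

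Genes of fatty acid oxidation and other PPARA targets held more higher than lower intervals. The 42 listed genes had 181 intervals, near 40 of them. Of the 69 tested, 6 were higher and 1 was lower, and their median difference was 0.24, against 4.76% higher, 8.41% lower and a median of -0.09 over all 18175 tested intervals within 10 kb of a gene. A further 22 of the 181 were gained and 9 lost, that is 12.2% and 4.97%, against 9.85% and 8.57% of all intervals near genes. Without centring, or with the mean fold of the overlapping peaks, 11 were higher, and among intervals called in all 8 libraries 1 was. Leaving out Cpt2 KO replicate 1 left 1 higher interval, the other fits without 1 library 3 to 6.

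The higher intervals of that list lay at Cyp4a genes, Hadhb and Vnn1. The interval inside Cyp4a14 (chr4:115490936-115498991), a fatty acid omega-hydroxylase and a classic PPARA target, had folds of 9.25 and 11.6 in WT and 30.6 and 26.7 in Cpt2 KO. Its difference was 1.24 ± 0.24 (limma adjusted p = 0.00827). Both Ppara KO libraries had no peak there and were left out, and DKO had folds of 5.32 and 5.51. Inside Cyp4a32 the interval chr4:115602774-115603405 was at 4.80 and 5.40 in WT and 17.0 and 10.3 in Cpt2 KO (1.15 ± 0.29, limma adjusted p = 0.0241, no Ppara-null call). The interval 9541 bases from Vnn1 (chr10:23883908-23886387), whose product is the pantetheinase vanin-1, stood at 14.4 and 12.2 in WT and 34 and 30.5 in Cpt2 KO. The difference was 1.05 ± 0.21 (limma adjusted p = 0.0105), again with no Ppara-null call and those 4 libraries left out of the fit. Without Cpt2 KO replicate 1 the adjusted p in limma was 0.0951 for Cyp4a14, 0.229 for Cyp4a32 and 0.101 for Vnn1. The Cyp4a genes are close copies, so reads may be shared between them.

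Other well-known fasting genes did not pass. The strongest interval of Cpt1a, which encodes the enzyme that commits fatty acids to mitochondrial entry, had folds of 23.0 and 24.7 in WT and 32.1 and 26.6 in Cpt2 KO, a centred difference of 0.06 ± 0.17 (limma adjusted p = 0.845). Pdk4, which encodes a brake on pyruvate dehydrogenase, Fgf21, a fasting hormone of the liver, and Angptl4, a lipase inhibitor, had differences of 0.21 ± 0.25, 0.16 ± 0.20 and -0.21 ± 0.20, with adjusted p of 0.598, 0.638 and 0.512 in limma. The 4 Ppara-null libraries had no peak at the Fgf21 interval and were left out of its fit. Cyp4a10 stood at 0.40 ± 0.27 (limma adjusted p = 0.341), Gdf15, a stress hormone gene, at -0.52 ± 0.21 (0.12) and the albumin gene Alb, with an interval 12527 bases away, at 0.11 ± 0.24 (0.795). The Angptl4 difference turned to 0.02 without centring.

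Genes of fatty acid uptake, storage and lipid droplets held both directions, with 7 of 72 tested intervals higher (9.72%, against 4.76% near all genes), 5 lower (6.94% against 8.41%) and a median of 0.01. The interval inside Gpat3 (chr5:100860887-100862535), an acyltransferase of glycerolipid synthesis, had folds of 3.45 and 4.11 in WT and 10.7 and 14.9 in Cpt2 KO (1.51 ± 0.30, limma adjusted p = 0.00809). The interval 2436 bases from Cidec (chr6:113436936-113439457), a lipid droplet fusion protein, had 12.9 and 10.0 in WT and 33.0 and 27.4 in Cpt2 KO (1.18 ± 0.23, limma adjusted p = 0.00698). Both knockout libraries were above both WT libraries at each, as they were after centring at every higher interval. Cidec was mixed, since a second interval inside the gene was also higher and another there (chr6:113427258-113429359) was lower, from 23.6 and 23.3 in WT to 11.2 and 16.7 in Cpt2 KO (-1.01 ± 0.25, limma adjusted p = 0.0187). The lower interval of Acsl1, which activates long-chain fatty acids (chr8:46482674-46485056), went the other way, from 9.50 and 15 to 5.08 and 7.90 (-1.14 ± 0.34, limma adjusted p = 0.0415). Without centring the list had 14 higher and 1 lower. In fits without Cpt2 KO replicate 1, Cpt2 KO replicate 2, WT replicate 1 and WT replicate 2 it had 1, 1, 6 and 2 higher and 0, 4, 5 and 0 lower.

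Single intervals stood out in other lists. The interval inside Pcx (chr19:4520086-4522463), the pyruvate carboxylase that starts gluconeogenesis, had folds of 7.40 and 8.11 in WT and 33.2 and 22.3 in Cpt2 KO (1.58 ± 0.24, limma adjusted p = 0.00298). Pcx also held 3 lower and 3 lost intervals, so the gene was mixed. The interval over the start of Nqo1 (chr8:107402706-107404519), a quinone reductase and NFE2L2 target, had 5 and 6.02 in WT and 12 and 14.3 in Cpt2 KO (1.03 ± 0.26, limma adjusted p = 0.0197). The interval over the printed Cyp2c39 promoter (chr19:39508458-39513324) had 5.38 and 13.4 in WT and 25.4 and 21.3 in Cpt2 KO, and the WT libraries were far apart (1.23 ± 0.31, limma adjusted p = 0.0201). Cyp2c39 belongs to the Cyp2c cytochrome P450 family, whose members are near-identical, so reads may be shared among them. The Nqo1 and Cyp2c39 calls passed in 1 of the 4 fits without 1 library, with adjusted p up to 0.144 in limma without Cpt2 KO replicate 2 for Nqo1 and 0.144 without Cpt2 KO replicate 1 for Cyp2c39.

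Endothelial marker genes held 9 higher and no lower intervals among 55 tested, with a median of 0.34, that is 16.4% and 0% against 4.76% and 8.41% of all tested intervals near genes. Of their 133 intervals 18 were gained (13.5% against 9.85%) and 3 lost (2.26% against 8.57%). The interval 6592 bases from Stab2 (chr10:87012820-87016441), a scavenger receptor gene of sinusoidal endothelium, had folds of 7.25 and 6.22 in WT and 20.1 and 14.8 in Cpt2 KO (1.13 ± 0.27, limma adjusted p = 0.0167). In Pecam1, an endothelial adhesion molecule, the interval chr11:106672553-106676576 had 10.6 and 8.40 in WT and 27.6 and 19.5 in Cpt2 KO (1.07 ± 0.26, limma adjusted p = 0.0186). With the smallest peak width as a covariate the Pecam1 difference turned to -0.19. The higher intervals of Ptprb and Oit3 had differences of 0.93 ± 0.24 and 1.01 ± 0.24. Without Cpt2 KO replicate 1, or without WT replicate 2, none of the 55 passed in limma, with medians of 0.40 and 0.26, and without Cpt2 KO replicate 2 there were 4.

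Summed fold over all intervals of the 15 endothelial genes was 680 and 617 in WT and 1181 and 1042 in Cpt2 KO. Such sums, here and below, are not centred and count called peaks only, so gained and lost calls enter them. Stellate and fibroblast markers went from 91.3 and 84.8 to 228 and 213. None of their 5 tested intervals passed, and the median difference was -0.03. Of 36 intervals 11 were gained (30.6%, against 9.85% of all intervals near genes) and 1 was lost (2.78% against 8.57%). The gained ones lay near Dcn, Hand2, Reln and Pdgfrb, whereas Col1a1, Col1a2 and Acta2, which define activated fibroblasts, had no interval in any of the 4 libraries. Macrophage markers went from 83.6 and 58.4 to 188 and 182. None of their 6 tested intervals passed, and the median difference was 0.42, against -0.09 near all genes. Of 31 intervals 3 were gained, near Clec4f, Vsig4 and Ctss, a share of 9.68% that is near the 9.85%. Near Itgam 1 was lost (3.23% against 8.57%), and Marco, Ccr2 and Trem2 had no interval. Hepatocyte markers went the other way, from 535 and 537 to 445 and 394. Of 27 tested intervals 4 were lower (14.8% against 8.41%) and none higher (against 4.76%), with a median of -0.30. Of 68 intervals 10 were lost (14.7% against 8.57%) and none gained (against 9.85%). Without centring 4 hepatocyte marker intervals were higher and 3 lower, and without WT replicate 2 and Cpt2 KO replicate 1 there were 1 and 0 lower. Lymphocyte and neutrophil markers had 5 intervals in all, and 12 of their 14 genes had none. These marker sums moved with genotype beside every group named here, and their part in the other results was not tested.

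The strongest gained intervals were as high as strong shared ones. The interval over the start of the intronless RNA-binding protein gene Pcbp1 (chr6:86526123-86528274) had folds of 34.7 and 35.2 in Cpt2 KO. It had no WT H3K27ac peak, yet folds of 28.5 to 43.7 in the Ppara-null libraries. H3K9ac, another acetylation mark, had a peak there in both WT and Cpt2 KO. At the start of Nsfl1c (chr2:151494164-151494757), a cofactor of the p97 ATPase, the folds were 32.5 and 32.1. Those inside Nudt5 (chr2:5867175-5868381), a nucleoside diphosphate hydrolase, and Ablim1 (chr19:57111108-57113547), an actin-binding protein, had 29.8 and 24.2, and 29.8 and 21.3. The interval inside Fa2h (chr8:111366627-111367566), a fatty acid 2-hydroxylase, had 23.8 and 23.4, and was called in none of the Ppara-null libraries. The median fold of gained intervals was 7.16 and 6.50 in the 2 knockout libraries, and 678 of 6395 had a mean of 10 or more. Gained intervals thus ranged from weak peaks to a fold of 34.9.

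Rad51b, a homologous recombination gene, had the most gained intervals, 12, with 3 more higher and none lost or lower among 32. The gained ones had folds of 3.89 to 12.8 in Cpt2 KO replicate 1 and 3.71 to 9.75 in replicate 2. Its higher intervals went from 9.05 and 6.70 to 22.1 and 17.5 at the largest difference (1.11 ± 0.24, limma adjusted p = 0.0122). Rbms3, Rapgef5, Msi2 and Prkce followed with 10 gained each, among 24, 17, 20 and 54 intervals. Of all intervals near genes 9.85% were gained. Prkce also had 7 lost, 3 lower and 1 higher, Rapgef5 1 higher and Msi2 1 lower. Over all 12015 genes with an interval within 10 kb, 288 had at least 3 higher or gained intervals and none lower or lost, and 363 had the reverse. Both kinds occurred at 749 genes.

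The largest lower intervals were strong in WT and weak in Cpt2 KO. Inside Klf12, a Kruppel-like repressor gene, chr14:100282829-100284718 had folds of 15.6 and 25.6 in WT and 4.12 and 4.14 in Cpt2 KO. Both knockout values lay far below both WT values, a difference of -2.50 ± 0.29 (limma adjusted p = 0.00157, DKO replicate 2 left out for lack of a peak). Over the start of the deubiquitinase gene Otud1, chr2:19656972-19659588 had 28.2 and 40.6 in WT and 8.50 and 8.33 in Cpt2 KO (-2.24 ± 0.26, limma adjusted p = 0.00157). The interval inside Rnf11, a ubiquitin ligase gene (chr4:109474190-109477209), had 23.1 and 36 in WT and 7.08 and 8.54 in Cpt2 KO (-2.12 ± 0.25, limma adjusted p = 0.00157). In the Ppara-null pair the Rnf11 interval had 29.1 and 23.2 with Cpt2 and 9.79 and 10.9 without it.

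The others of the 8 lay over the starts of Ankrd33b (-2.32), Saa4 (-2.29), Lin7a (-2.25) and Nfix (-2.18) and 3429 bases from Aspg (-2.40). DKO replicate 1 had no peak at Saa4 and DKO replicate 2 none at Nfix and Aspg, and each was left out there. Of the 8, 7 passed without any 1 library, with adjusted p up to 0.0415 in limma, and Saa4 reached 0.0515 without Cpt2 KO replicate 1. Nfix, a nuclear factor I gene, was the gene with the most lost intervals, 16, with 5 more lower and none higher or gained among 38. Its lower intervals had folds of 8 to 27.3 in WT and 3.75 to 8.13 in Cpt2 KO. The lost ones had 3.83 to 16.2 in WT. Ptprf, a receptor phosphatase, and Vgll4, a TEAD cofactor, followed with 13 lost and 2 lower each and none in the other direction. They had 27 and 36 intervals, and of all intervals near genes 8.57% were lost.

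Lipogenic genes were mostly lower or lost. Of 54 tested intervals near the 19 genes, 8 were lower (14.8%, against 8.41% near all genes) and 1 higher (1.85% against 4.76%). The median difference was -0.35. Of 198 intervals 40 were lost (20.2% against 8.57%) and 5 gained (2.5% against 9.85%). The lost intervals lay most at Acly (9), which makes cytosolic acetyl-CoA, and Elovl6 (8), a fatty acid elongase. Summed fold over the list was 1174 and 1493 in WT and 797 and 873 in Cpt2 KO. Without centring 5 were lower and the median was -0.12. Without Cpt2 KO replicate 1 none passed in limma (median -0.29), and without WT replicate 2 there were 2 lower.

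The interval over the printed Srebf1 start (chr11:60205182-60211694) had folds of 22.2 and 18.5 in WT and 4.14 and 7.5 in Cpt2 KO. Both knockout values lay far below WT (-2.09 ± 0.33, limma adjusted p = 0.00338). A further 3 Srebf1 intervals were lost. Starts of Srebf1 farther upstream lay under an interval that did not pass. Over the start of Fasn, the interval (chr11:120819137-120826754) of this fatty acid synthase gene had 20.3 and 32.2 in WT and 8.29 and 11.8 in Cpt2 KO (-1.60 ± 0.30, limma adjusted p = 0.00579). An interval inside Aacs (chr5:125497506-125498567), which turns acetoacetate into a lipid precursor, had 20.6 and 15.4 in WT and 4.83 and 8 in Cpt2 KO (-1.75 ± 0.33, limma adjusted p = 0.00805, 3 Ppara-null libraries left out). Inside Acaca (chr11:84146218-84147921), acetyl-CoA carboxylase, the folds were 12.6 and 14.5 against 6.64 and 6.18 (-1.31 ± 0.29, limma adjusted p = 0.0122). At these 4 genes the groups did not overlap, which after centring held for every interval that passed. Without Cpt2 KO replicate 1 the adjusted p in limma was 0.0501 for Srebf1, 0.0801 for Fasn, 0.0923 for Aacs and 0.0945 for Acaca.

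Cholesterol genes were lower or lost where they passed. Of 30 tested intervals 6 were lower (20%, against 8.41% near all genes) and none higher (against 4.76%), with a median of -0.46. Of 99 intervals 16 were lost (16.2% against 8.57%) and none gained (against 9.85%). Summed fold was 609 and 812 in WT and 402 and 395 in Cpt2 KO. Insig1, which retains the SREBP complex in the endoplasmic reticulum, had 19.4 and 25.7 in WT and 11.3 and 10.9 in Cpt2 KO over its start (chr5:28069516-28074481; -1.23 ± 0.21, limma adjusted p = 0.00442). Srebf2 (chr15:82143756-82148830) had 16.4 and 25.7 in WT and 10.1 and 11.4 in Cpt2 KO (-1.17 ± 0.24, limma adjusted p = 0.0102). Hmgcs1, an early enzyme of the pathway (chr13:119690274-119691765), had 22.2 and 31.0 in WT and 15.8 and 15.3 in Cpt2 KO (-0.98 ± 0.21, limma adjusted p = 0.0102). Sc5d, a late enzyme of the pathway, had 3 of the lost intervals. Without centring 2 were lower. Leaving out 1 library gave 0 (Cpt2 KO replicate 1), 3 (Cpt2 KO replicate 2), 7 (WT replicate 1) and 1 (WT replicate 2) lower ones in limma.

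**Figure D3:**
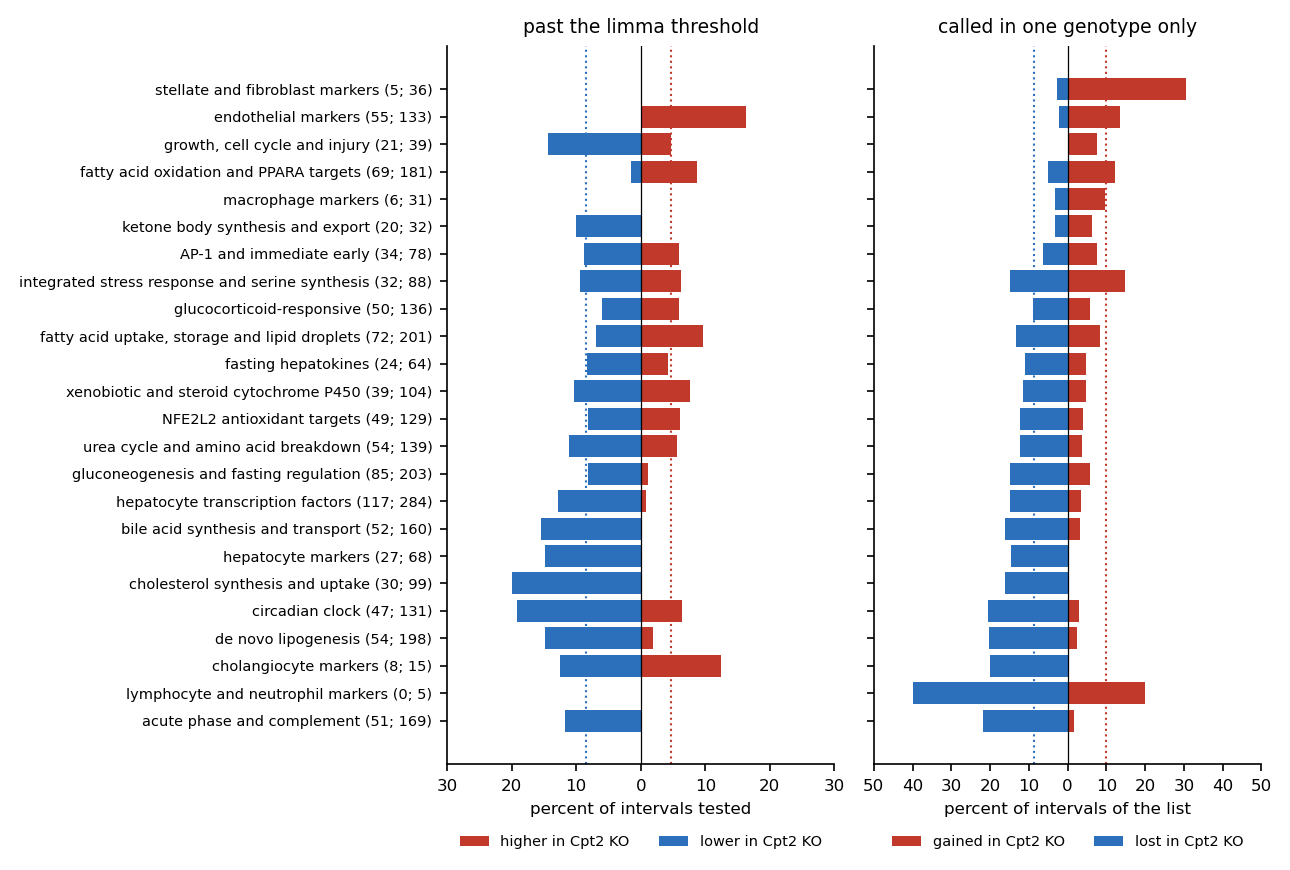
For each of the 24 gene lists, the percent of tested intervals past the limma threshold (left) and the percent of intervals called in both libraries of one genotype only (right), red to the right for Cpt2 KO and blue to the left for WT. Dotted lines give the same percent over all intervals within 10 kb of a gene, and brackets give the tested and total intervals of each list. Cholesterol genes have bars on the blue side only, and endothelial markers have no lower interval.

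Acute phase and complement genes had the largest share of lost intervals among lists of 15 or more intervals. It was 37 of 169 (21.9%, against 8.57% of all intervals near genes), with 3 gained (1.8% against 9.85%). Of 51 tested, 6 were lower (11.8%, against 8.41% of all tested intervals near genes) and none higher (against 4.76%), with a median of -0.24. Saa4, a constitutive serum amyloid A gene, had 26.2 and 15.5 in WT and 4.50 and 5.17 in Cpt2 KO over its printed start (chr7:46730356-46733602; -2.29 ± 0.38, limma adjusted p = 0.00439, DKO replicate 1 left out). The interval 2110 bases from its inducible relative Saa1 (chr7:46737934-46738841) had 26.8 and 17.2 in WT and 7.17 and 5.64 in Cpt2 KO (-1.99 ± 0.31, limma adjusted p = 0.00418, 3 Ppara-null libraries left out). Ppara-null libraries that called them had folds of 4.88 to 11.0. Saa genes are close copies, so reads may be shared between them. Stat3, which carries the interleukin-6 signal that induces these genes, had 8 lost, 1 lower and 2 gained intervals. Without centring 2 of the 51 were higher and 4 lower, and leaving out 1 library left 1 to 5 lower.

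Intervals at hepatocyte transcription factor genes were lower at 15 of 117 (12.8%, against 8.41% near all genes) and higher at 1 (0.86% against 4.76%), with a median of -0.36. Of 284 intervals 42 were lost (14.8% against 8.57%) and 10 gained (3.52% against 9.85%). Onecut1, a liver homeobox gene, had 11.9 and 19.5 in WT and 4.29 and 8.36 in Cpt2 KO over its start (chr9:74861807-74867325; -1.58 ± 0.37, limma adjusted p = 0.0156). Hnf4a, a master regulator of hepatocyte genes, had a lower interval (chr2:163556558-163557926), from 7.57 and 11.6 to 4 and 5.25 (-1.26 ± 0.30, limma adjusted p = 0.0164), and 5 lost ones. Ppara itself was among the genes with a lower interval. The count depended on the scaling, with 4 lower and 3 higher without centring and 6 lower after quantile normalization. It also fell without Cpt2 KO replicate 1 (0), Cpt2 KO replicate 2 (5) and WT replicate 2 (1).

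Bile acid genes had 8 lower intervals of 52 (15.4%, against 8.41% near all genes), none higher (against 4.76%) and a median of -0.35. Of 160 intervals 26 were lost (16.2% against 8.57%). Another 5 were gained (3.1% against 9.85%), at Abcb4 and Abcc4. An interval inside Cyp27a1 (chr1:74715467-74716881), the sterol 27-hydroxylase, had folds of 17.4 and 15.9 in WT and 5.17 and 7.80 in Cpt2 KO (-1.62 ± 0.30, limma adjusted p = 0.00603). Both knockout values were below WT, as they were after centring at every lower interval. With only the 4 WT and Cpt2 KO libraries in the fit 3 of the 52 were lower, without centring 3 (and 1 higher), and leaving out 1 library gave 0 to 2.

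Clock genes had 9 lower intervals of 47 (19.1%, against 8.41% near all genes) and 3 higher (6.38% against 4.76%). Of 131 intervals 27 were lost (20.6% against 8.57%) and 4 gained (3.05% against 9.85%). Inside Rora, a nuclear receptor of the clock (chr9:69287121-69291450), the folds were 33.2 and 36.2 in WT and 11.7 and 18.8 in Cpt2 KO (-1.45 ± 0.23, limma adjusted p = 0.00385), and another Rora interval was higher. Inside Nfil3, a repressor of D-box genes (chr13:52974984-52981004), they were 22.7 and 26.6 against 13.5 and 6.27 (-1.65 ± 0.29, limma adjusted p = 0.00528). At both intervals the groups did not overlap, which after centring held for every interval that passed. The list's median of -0.17 turned to 0.06 without centring, where 4 were higher and 3 lower. It was 0.01 without Cpt2 KO replicate 1, where 1 was lower, and 3 were lower without Cpt2 KO replicate 2 or WT replicate 2.

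Gluconeogenic and insulin-response genes had 7 lower intervals of 85 (8.24%), a share near the 8.41% over all intervals near genes, and 1 higher (Pcx, 1.18% against 4.76%). Their median difference was -0.32, against -0.09 over all tested intervals near genes. Lost intervals were 30 of 203 (14.8% against 8.57%) and gained ones 12 (5.91% against 9.85%). Over the start of Irs2, an insulin receptor substrate (chr8:11003463-11011702), the folds were 28.9 and 43.8 in WT and 25.3 and 18.9 in Cpt2 KO (-0.93 ± 0.19, limma adjusted p = 0.00953). Over the start of Foxo3, a fasting transcription factor (chr10:42270961-42278799), they were 20.1 and 34.5 against 17.8 and 14.9 (-0.92 ± 0.23, limma adjusted p = 0.0189). At both starts the lower WT library and the higher Cpt2 KO library lay close together before centring. Without centring 5 of the 85 were higher and 3 lower, and leaving out 1 library gave 0 (Cpt2 KO replicate 1), 1, 8 and 1 (WT replicate 2) lower.

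The other lists had small counts, to be read against 4.76% higher and 8.41% lower over all tested intervals near genes. Integrated stress response genes had 2 higher and 3 lower of 32 tested (6.25% and 9.38%). Of their 88 intervals 13 were gained and 13 lost (14.8% each, against 9.85% and 8.57%). NFE2L2 targets had 3 higher and 4 lower of 49 (6.12% and 8.16%). They had 3.88% gained and 12.4% lost, against the same 9.85% and 8.57%. Amino acid breakdown genes had 3 and 6 of 54 (5.56% and 11.1%), with 3.6% gained and 12.2% lost. There were 3 and 4 of 39 at cytochrome P450 genes (7.69% and 10.3%) and 3 and 3 of 50 at glucocorticoid-responsive genes (6% each). AP-1 genes had 2 and 3 of 34 (5.88% and 8.82%) and growth and injury genes 1 and 3 of 21 (4.76% and 14.3%). Fasting hepatokines had 1 and 2 of 24 (4.17% and 8.33%) and ketone body genes 0 and 2 of 20 (0% and 10%).

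The strongest lost interval lay inside Arhgap26, a GTPase-activating protein gene (chr18:39362575-39364664), at 18.4 and 18.2 in WT with no Cpt2 KO peak, and it was called in all 4 Ppara-null libraries at 10.7 to 13.8. Lonrf3, a RING finger gene, had a lost interval over its start (chrX:36328259-36329452) at 15.1 and 20.5, and that over the start of Cdyl, a chromodomain corepressor (chr13:35741308-35742414), 14.5 and 18.0. Those at Bcr (9.67 and 25.4), Slc30a10 (11.0 and 23.8) and Samd1 (12.5 and 21.1) had WT libraries that were far apart. All but the Arhgap26 interval had an H3K9ac peak in Cpt2 KO at the same place. Before centring, 178 of 4369 lost intervals had a mean fold of 10 or more, a smaller share than among gained ones. Peaks of the Cpt2 KO lists also had higher median folds, 8.02 and 7.42, than those of WT, 6.69 and 7.0.

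The same intervals were then read in Ppara-null livers, whose DKO and Ppara KO libraries also differ in Cpt2 and share no library with the WT and Cpt2 KO groups. Of the 1058 higher intervals called in all 8 libraries, 789 (74.6%) were higher in DKO than in Ppara KO, and of 1459 lower ones 1124 (77.0%) were lower. Among 15764 shared intervals that did not pass, 52.6% were higher. Median differences were 0.23, -0.27 and 0.02, well below the 1.00 and -1.05 by which the first 2 sets were chosen. Of gained intervals, 1284 (20.1%) were called in both DKO and neither Ppara KO library, against 23 the other way. Of lost ones, 543 (12.4%) were called in both Ppara KO and neither DKO, against 33. Other intervals called in some but not all of the 4 WT and Cpt2 KO libraries also leaned toward DKO. Of these, 1569 (7.02%) were called in both DKO and neither Ppara KO library, and 657 (2.94%) the other way. DKO lists held more peaks, 48929 and 48124, than Ppara KO lists, 46543 and 44454. Across the 18281 intervals called in all 8 libraries, the differences of the 2 pairs correlated at r = 0.34 (Spearman correlation 0.33), with the same libraries behind every point. The smallest peak width also moved with Cpt2 in this pair, 205 and 210 bases in Ppara KO against 217 and 223 in DKO, and its part in these counts was not tested.

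**Figure D4:**
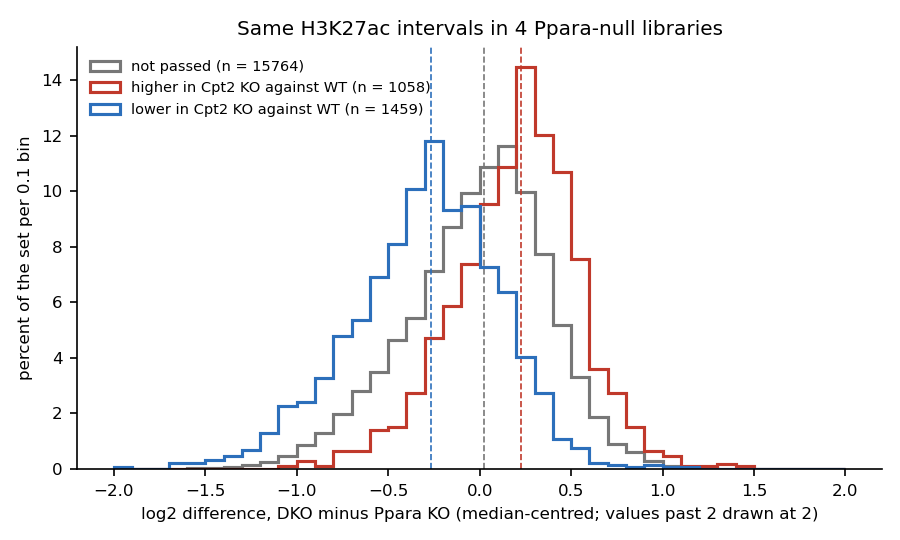
Distribution of the median-centred log2 difference, DKO minus Ppara KO, at intervals that were higher (red, n = 1058) or lower (blue, n = 1459) in Cpt2 KO against WT or did not pass (grey, n = 15764). Dashed lines are medians at 0.23, -0.27 and 0.02, so both sets are shifted the same way as in Cpt2 KO and by less.

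Other marks at these intervals came from separate libraries. H3K9ac, an acetylation mark of active promoters with 1 library a genotype, covered 88.1% of lower intervals in WT and 79.3% in Cpt2 KO, and 36.4% and 44.4% of higher intervals. Among lower intervals 162 had an H3K9ac peak in WT only and 15 in Cpt2 KO only. Among higher ones the counts were 41 and 137, and among those that did not pass 1070 and 891. Gained intervals went from 6.18% to 9.95% and lost ones from 42.7% to 34.2%. With 1 library a genotype these shares have no replicate check.

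H3K4me1, which marks enhancers whether active or not, covered 85.0% and 85.6% of lost intervals in WT and 40.7% and 78.4% in Cpt2 KO. The 2 Cpt2 KO libraries were far apart, and the second was close to WT. Gained intervals had a peak in 18.0% and 17.7% in WT and 45.7% and 28.2% in Cpt2 KO, and 522 of them were called in both Cpt2 KO and neither WT library, against 9 the other way. Higher intervals went from 58.6% and 55.9% to 80.9% and 64.9%. Lower intervals stayed between 77.1% and 78.5% in all 4 libraries, close together across genotypes.

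**Figure D5:**
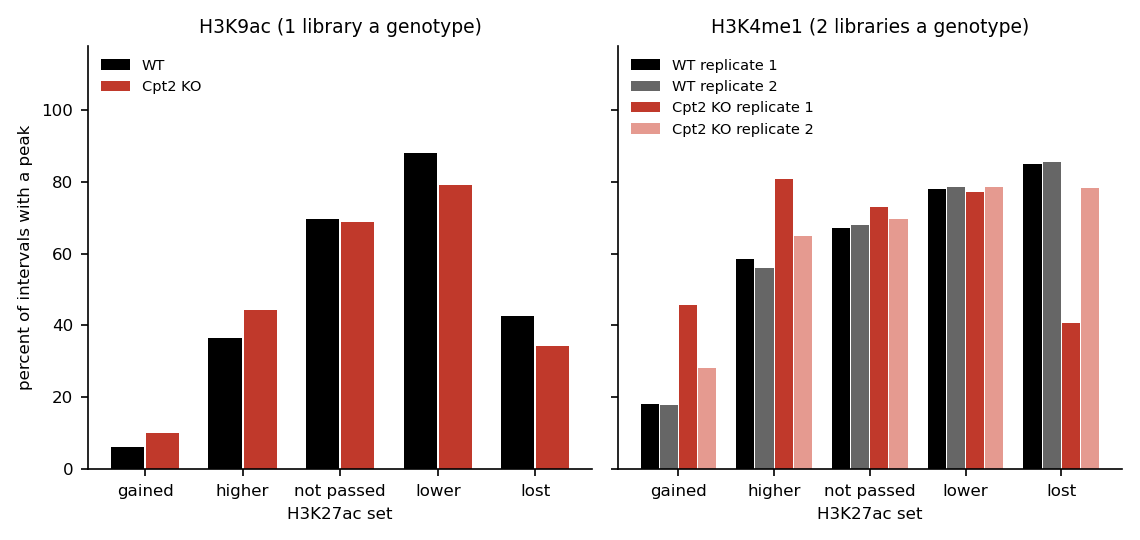
Percent of intervals of each H3K27ac set that overlap an H3K9ac peak (left, 1 library a genotype) or an H3K4me1 peak (right, 2 libraries a genotype). Cpt2 KO replicate 1 stands apart from replicate 2 for H3K4me1, at 40.7% against 78.4% of lost intervals.

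Promoters under the intervals were searched for the 12 motifs, on both strands. Of 32851 RefSeq promoters on GRCm38.p6, 287 started in higher, 847 in lower and 8562 in shared intervals that did not pass. The FOXA motif TGTTTAC was in 6.62% of promoters in higher and 3.90% in lower intervals, against 3.10% where no change passed. The C/EBP motif TTGCNNAA was in 12.9% and 7.79%, against 8.96%. The ETS motif CCGGAAG was in 17.4% and 10.0%, against 19.8%. The sterol response motif TCACNCCAC, added after the values were seen, was in 0.70% and 1.42%, against 1.18%, and a PPARA-type direct repeat (DR1) in 0.70% and 0.12%, against 0.36%. These shares describe promoters only, and few gained or lost intervals cover one. The sterol and DR1 shares of the 287 promoters, and the DR1 share of the 847, rest on very few promoters.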

How the data were processed

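H3K27ac, H3K9ac and H3K4me1 were measured by chromatin immunoprecipitation sequencing of mouse liver. Reads were aligned with BWA and peaks called with MACS2 2.1.0 on mm10, per the submitters' processing notes. The labels name a pooled input for H3K27ac and H3K4me1. In the deposited peak lists, called per library, each peak carries a fold over background and a −log10 p and −log10 q. In 1 Ppara KO library the peak names hold a different word in place of the build, and it was taken to be on mm10.

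Each consensus interval took the fold of its highest overlapping peak (1 base or more, bedtools 2.31.1). Fold was log2-transformed and each library centred on its median over the 20947 intervals called in all 4 WT and Cpt2 KO libraries. limma 3.58.1 (R 4.3.3) was fitted across those intervals with the 4 groups and 8 libraries, which share 1 estimate of the spread, and p-values were adjusted by Benjamini-Hochberg with a threshold of 0.05. A library without a peak in an interval was left out of that interval's fit. The fit was tested on simulated data. A gene belonged to an interval whose middle lay within 10 kb of its body, by RefSeq. Peak lists hold no read counts, so depth and counting error are unknown. WT and Cpt2 KO share replicate numbers, but the labels give no pairing, so no block was used.

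Named intervals are the 8 largest differences in each direction, the 6 strongest gained and lost, the 3 genes with most gained and most lost intervals (with ties), up to 4 genes of each list and the strongest interval of 9 fasting and reference genes. Genes named outside this rule, such as those with most lost intervals within a list, were chosen after their values were seen. Members and gene lists were chosen with earlier results of these data known. Tables were handled with Python 3.11.15, pandas 2.3.3 and numpy 2.4.6. Some named genes are not reported here.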

Additional observations from a re-analysis of the deposited data

Results flagged for a closer look

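At 3 named intervals both libraries of each group separated in opposite directions in the 2 pairs that differ in Cpt2. The difference between the pairs was not tested. The Sntb1 interval was higher in Cpt2 KO than WT by 1.98 on the log2 scale and had a DKO minus Ppara KO difference of -0.37. The Sik1 interval, at a kinase gene of fasting signals, had -0.74 in Cpt2 KO minus WT and 0.50 in the other pair. The Gdf15 interval, which did not pass in Cpt2 KO against WT (limma adjusted p = 0.12), had -0.52 and 0.58. Before centring its folds overlapped in the first pair, 19.7 and 28.6 in WT and 21.0 and 18.0 in Cpt2 KO.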

How the results depend on the processing

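The covariate for peak width moved the counts most, and scaling and single libraries moved them too. Without centring 2172 intervals were higher and 678 lower, and with the smallest peak width as a covariate 0 and 0 passed in limma, with 705 and 949 at an unadjusted p under 0.05. Leaving out 1 library gave 55 to 1320 higher, 120 to 1760 lower, 7710 to 10380 gained and 4993 to 8971 lost. In the fits on 4 libraries, after quantile normalization, with intervals called in all 8, stricter peaks, stricter overlap or the mean fold, counts stayed within 1.5 times. With the replicate number as a block, 1359 were higher and 1875 lower and all 92 named calls were kept. Replicate deviations of the 2 genotypes correlated at r = 0.15 over 20947 intervals, and the labels give no pairing. Of the 92 named calls, 71 were kept without centring, 84 after quantile normalization, and with 1 library left out 78 (WT replicate 1), 38 (WT replicate 2), 16 (Cpt2 KO replicate 1) or 52 (Cpt2 KO replicate 2). With the width covariate the difference changed sign for Pecam1 (-0.19), Ddit4 (-0.25), D630045J12Rik (-0.064), Onecut2 (0.42), Sc5d (0.53), Gls2 (0.081), Yap1 (0.16), Angptl4 (0.39), Cpt1a (-0.14) and Alb (-0.67). Values near 0 changed sign for Angptl4 without centring (0.016). With 1 library left out, Cpt1a ranged from -0.011 (Cpt2 KO replicate 1) to 0.13 (Cpt2 KO replicate 2), Alb from -0.12 (WT replicate 2) to 0.33 (WT replicate 1) and Pdk4 from -0.13 (WT replicate 1) to 0.55 (WT replicate 2). The cause was not tested. Depth is unknown, and a missing call limits what gained and lost can show.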
